A study of Mus musculus with 6 samples.

Results

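The genes described here are 33 mouse genes by which macrophages of the embryo can be recognised, measured in whole embryos that carry none, 1 or both copies of an altered Stat3 allele. They were listed by name, with earlier results of these data known. Every gene probe of the array whose accession maps to one of those names was taken, whatever its signal. This gave 43 probes of the 39429 gene probes on the array, and 33 of its 20659 named genes. Of the 43 probes, 42 exceeded background clearly on the 2 arrays of some genotype and were tested. They cover 32 genes, 25 of the 33 members having 1 probe, 6 having 2 and 2 having 3. The remaining gene is Cd163, a scavenger receptor for haemoglobin, whose single probe was not well above background on any of the 6 arrays.

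Total RNA came from 6 whole embryos at day 12, 2 of each genotype, and was hybridised to 1-colour Agilent arrays. The wild-type embryos had no altered Stat3 allele, the heterozygous embryos carried 1 allele labelled STAT3-K177K180R, and the homozygous embryos carried that allele on both chromosomes. No other allele or agent is named in the labels, which say that embryos of the 3 genotypes shared a womb, and the design text speaks of independent experiments in each group. The extraction text names tumor tissue, and the titles and genotype labels of the wild-type embryos also carry the word mutant. Here the embryos were grouped by the wild-type, heterozygous or homozygous in those titles. Since it is not stated which embryos shared a litter, p-values measure only the spread between these samples.

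Macrophages appear in the mouse embryo before the definitive blood system, first from progenitors of the yolk sac and then from the fetal liver, and settle in every tissue, where they engulf dying cells and expelled red cell nuclei. Their survival depends on the receptor encoded by Csf1r, and their identity on the transcription factor PU.1, encoded by Spi1. STAT3 is a transcription factor that cytokine receptors activate by phosphorylation, and it is best known in myeloid cells for acting downstream of the receptors for interleukin 6, interleukin 10 and granulocyte colony-stimulating factor.

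Levels are log2 intensities relative to the 75th percentile of their own array, so a level of 0 is as bright as that percentile and a difference of 1 is a doubling. Levels of different probes were not compared, since probes differ in how strongly they bind. A probe was called changed at a Benjamini-Hochberg adjusted p below 0.05 over all probes in limma's test, fitted on all 6 arrays, with n = 2 embryos per genotype throughout. The 4 wild-type and heterozygous arrays were read in 1 scan and the 2 homozygous arrays in another. Scan and homozygous genotype therefore cannot be told apart, while heterozygous and wild-type embryos were compared within 1 scan. Over all probes, arrays of the first scan correlated with each other at 0.995 to 0.996, the 2 homozygous arrays at 0.988 with each other, and arrays of different scans at 0.964 to 0.977. The negative control spots had a median intensity of 26 to 27 on the first scan and of 43.5 and 48 on the homozygous arrays, whose 75th percentile was lower, at 860 and 785 against 1037 to 1263. Between 72.0% and 78.3% of gene probes were well above background.

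In homozygous embryos 13 probes of 10 macrophage genes were higher than in wild-type embryos, and 4 probes of 4 genes were lower. The genes with a raised probe were Cx3cr1, C5ar1, Fcer1g, Ly86, Msr1, Marco, Lilrb4a, Laptm5, Cybb and Mpeg1, and those with a lowered one were Csf1r, Stab1, Aif1 and Lyz1. Among the 13, the dimmer probe of Msr1 was tested only because it exceeded background on the homozygous arrays. Over the array 27.7% of probes were called in this comparison, 13.2% as higher and 14.6% as lower. Of the 42 macrophage probes 40.5% were called, 31.0% as higher and 9.52% as lower. Both homozygous embryos lay above both wild-type embryos on 25 macrophage probes and below them on 7, where over the array 38.4% of probes lay above and 30.5% below. The median difference was 0.41 over the macrophage probes and 0.08 over all probes. In a whole embryo, fewer cells of a type and less RNA per cell cannot be told apart, nor can their opposites, and this holds for every result here.

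**Figure D1:**
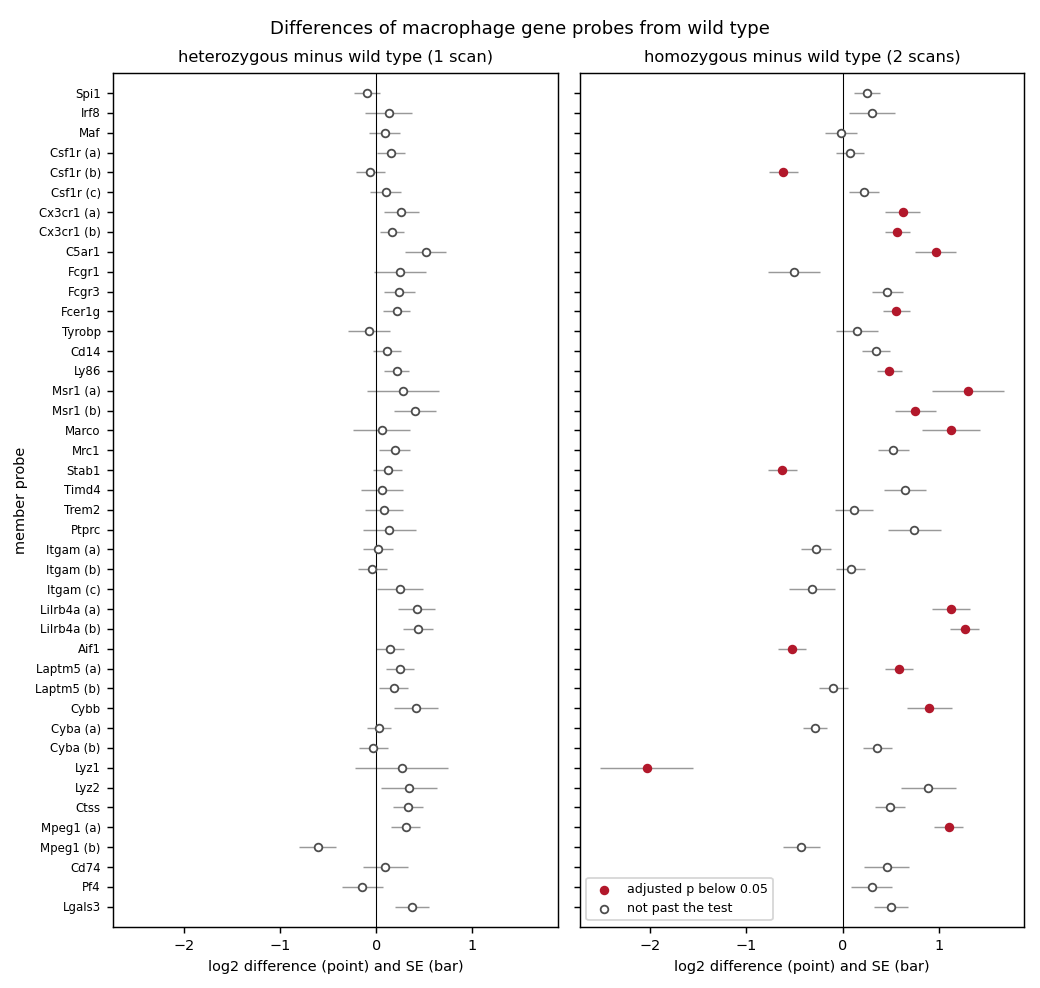
Difference of each macrophage probe on the log2 scale between genotypes, with the standard error as a bar and filled points for probes called by limma. Points of homozygous minus wild type spread from -2.04 to 1.30 and lie mostly above 0. Those of heterozygous minus wild type lie nearer to 0, and none of them was called.

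The calls depended on the wild-type arrays. Without wild-type replicate 1 the number of called macrophage probes fell from 17 to 3, and without wild-type replicate 2 to 2, while calls over all probes fell from 8298 to 2454 and 2130. With no filter on dim probes 5 of the 43 macrophage probes were called (11.6%), a smaller share than over the array (17.3%). With normexp background correction 22 macrophage probes were higher and 3 lower, so that 59.5% of them were called, against 34.6% of all probes. It raised the median difference of all probes from 0.08 to 0.19, and the share of all calls that were higher went from 47.5% to 67.2%. The probe A_55_P1957459 of Lilrb4a and the probe A_51_P390538 of Mpeg1 passed in this comparison under each of the 16 other settings tried.

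The regions before the start sites of 5 genes are shown because these genes differed between homozygous embryos and both other genotypes. Marco and 1 of the 2 tested probes of Mpeg1 were higher, and Stab1, Aif1 and Lyz1 were lower. Lilrb4a, at both its probes, and Csf1r, lower at 1 of its 3, met the same condition and are named only. Each line gives the 250 bases before the start site, 5′ to 3′ along the gene's strand, from RefSeq on GRCm38.p6, with the letters GAGGAAG, a core of PU.1 binding sites, in capitals where present.
Marco, chr1:120505025-120505274, minus strand: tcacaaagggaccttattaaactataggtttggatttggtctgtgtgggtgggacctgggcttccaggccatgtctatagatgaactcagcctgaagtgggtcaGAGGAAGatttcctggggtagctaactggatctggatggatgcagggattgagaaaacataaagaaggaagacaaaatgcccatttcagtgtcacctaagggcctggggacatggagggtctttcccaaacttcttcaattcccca
Mpeg1, chr19:12460520-12460769, plus strand: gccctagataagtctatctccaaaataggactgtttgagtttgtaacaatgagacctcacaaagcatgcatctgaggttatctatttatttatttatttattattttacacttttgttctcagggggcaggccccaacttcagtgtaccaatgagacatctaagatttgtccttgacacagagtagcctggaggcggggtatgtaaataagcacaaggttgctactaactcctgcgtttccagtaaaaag
Stab1, chr14:31168642-31168891, minus strand: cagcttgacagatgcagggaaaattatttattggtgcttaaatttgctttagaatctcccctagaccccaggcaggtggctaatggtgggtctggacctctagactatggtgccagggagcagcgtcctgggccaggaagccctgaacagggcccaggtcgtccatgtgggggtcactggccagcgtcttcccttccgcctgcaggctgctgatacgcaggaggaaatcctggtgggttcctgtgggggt
Aif1, chr17:35176053-35176302, minus strand: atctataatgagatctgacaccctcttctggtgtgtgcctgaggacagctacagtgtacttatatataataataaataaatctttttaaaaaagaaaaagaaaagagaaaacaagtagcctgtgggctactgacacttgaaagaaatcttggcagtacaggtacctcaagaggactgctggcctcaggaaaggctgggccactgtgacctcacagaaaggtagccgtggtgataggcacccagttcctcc
Lyz1, chr10:117292869-117293118, minus strand: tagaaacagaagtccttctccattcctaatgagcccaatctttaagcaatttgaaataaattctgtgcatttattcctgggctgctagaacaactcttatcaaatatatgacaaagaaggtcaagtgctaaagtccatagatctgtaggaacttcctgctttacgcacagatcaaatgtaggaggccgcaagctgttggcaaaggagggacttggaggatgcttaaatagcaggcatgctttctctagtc

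Marco has those letters once, starting 146 bases before the start site, and the other 4 sequences hold them on neither strand. Entries were found for 25 of the 33 macrophage genes, with 28 promoters in all. GAGGAAG, searched on both strands, occurs in 9 of these 28, which belong to Marco, Fcgr3, Mrc1, Fcgr1, Laptm5, Pf4, Itgam and Trem2, and in 10.6% of all 32851 RefSeq promoters of that length. TTCNNNGAA, the palindrome of STAT sites, occurs in 2 of the 28, those of Fcgr1 and Irf8, and in 7.02% of all. Matches of the 2 patterns were counted separately and may overlap. They describe the letters only.

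None of the 3 transcription factor genes of the list was called in any comparison. Spi1 was dim, with levels of -5.88 and -5.80 for wild type, -6.00 and -5.87 for heterozygotes and -5.50 and -5.67 for homozygotes. Both homozygous embryos were above all others, by 0.25 ± 0.14 (SE, adjusted p = 0.203) over wild type, which did not pass the test. Irf8, a factor of monocyte and macrophage development, had levels of -1.42 and -1.32 for wild type, -1.26 and -1.22 for heterozygotes and -0.69 and -1.43 for homozygotes. Homozygous embryo 1 was the highest of all and homozygous embryo 2 the lowest. Its difference was 0.31 ± 0.24 (SE, adjusted p = 0.369). Maf, a factor that limits macrophage proliferation, differed by -0.02 ± 0.16 (SE, adjusted p = 0.946).

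Among receptors for growth factors, chemokines and complement, Cx3cr1 and C5ar1 were higher in homozygous embryos. Cx3cr1 encodes the receptor for fractalkine, carried by yolk sac macrophages and microglia. Its probe A_55_P2007964 had levels of -0.53 and -0.45 for wild type, -0.40 and -0.26 for heterozygotes and 0.04 and 0.10 for homozygotes. The 3 genotypes did not overlap, and homozygous embryos exceeded wild type by 0.57 ± 0.13 (SE, adjusted p = 0.0221). The second probe, A_52_P99810, had levels of -2.86 and -3.03 for wild type, -2.73 and -2.64 for heterozygotes and -2.54 and -2.10 for homozygotes. It ordered the genotypes in the same way, with a difference of 0.62 ± 0.18 (SE, adjusted p = 0.0458), or 0.40 (adjusted p = 0.0930) without homozygous replicate 2. C5ar1, the receptor for the complement fragment C5a, was dim, with levels of -5.97 and -5.96 for wild type, -5.76 and -5.14 for heterozygotes and -5.00 and -4.99 for homozygotes. The wild-type embryos were lowest and the homozygous ones highest, a difference of 0.97 ± 0.21 (SE, adjusted p = 0.0203), but it was 0.51 with normexp background correction and 0.25 (adjusted p = 0.0890) with normexp and quantile normalization.

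The 3 probes of Csf1r did not move together. The brightest, A_55_P2025078, had levels of 2.05 and 2.12 for wild type, 2.21 and 2.16 for heterozygotes and 2.49 and 2.12 for homozygotes, and homozygous embryo 2 lay within the range of the other genotypes. Its difference from wild type was 0.22 ± 0.16 (SE, adjusted p = 0.331). Probe A_55_P2025073 had levels of -1.36 and -1.46 for wild type, -1.40 and -1.55 for heterozygotes and -1.90 and -2.16 for homozygotes. Both homozygous embryos were below all others on it, with differences of -0.62 ± 0.15 (SE, adjusted p = 0.0280) against wild type and -0.55 ± 0.15 (SE, adjusted p = 0.0438) against heterozygous embryos. The third probe, A_52_P602091, differed from wild type by 0.08 ± 0.15 (SE, adjusted p = 0.707). All 3 probes carry the same accession, NM_001037859, so the annotation does not say which transcripts each one reads.

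Of the genes for Fc receptors and their adaptor chains, only Fcer1g passed the test. Fcer1g encodes the common gamma chain through which activating Fc receptors signal. Its levels were -0.47 and -0.59 for wild type, -0.27 and -0.36 for heterozygotes and 0.14 and -0.08 for homozygotes, with no overlap between genotypes. The homozygous excess over wild type was 0.56 ± 0.14 (SE, adjusted p = 0.0304), a call lost in 7 of 16 other settings. Fcgr3, an Fc receptor that signals through that chain, gave 0.47 ± 0.16 (SE, adjusted p = 0.0801). Fcgr1, the high-affinity receptor for IgG, had levels of -3.46 and -3.17 for wild type, -3.07 and -3.06 for heterozygotes and -3.41 and -4.23 for homozygotes, and its difference of -0.51 ± 0.27 (SE, adjusted p = 0.202) came mainly from homozygous embryo 2. Tyrobp, the adaptor DAP12 of Trem2 and other receptors, gave 0.15 ± 0.22 (SE, adjusted p = 0.636), with its wild-type embryos apart by more than that. The Fcgr genes are close in sequence, so some signal may be shared between them.

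Among 8 tested genes for pattern recognition and scavenger receptors, Ly86, Msr1 and Marco were higher in homozygous than in wild-type embryos and Stab1 was lower. Marco, a scavenger receptor of macrophages that take up bacteria and particles, had levels of -1.13 and -1.27 for wild type, -1.63 and -0.66 for heterozygotes and -0.07 and -0.08 for homozygotes. The homozygous embryos were nearly equal and above all others, whereas the heterozygous embryos lay on either side of the wild type. The differences were 1.13 ± 0.30 (SE, adjusted p = 0.0356) against wild type and 1.07 ± 0.30 (SE, adjusted p = 0.0474) against heterozygous embryos, the latter 0.59 (adjusted p = 0.109) without heterozygous replicate 1. Ly86, or MD-1, the partner of the Toll-like receptor homologue RP105, had levels of 0.28 and 0.21 for wild type, 0.50 and 0.41 for heterozygotes and 0.82 and 0.64 for homozygotes. It rose in non-overlapping steps, by 0.49 ± 0.13 (SE, adjusted p = 0.0391) from wild type to homozygous, a call lost in 8 of 16 other settings. Msr1, scavenger receptor A, had levels of -4.31 and -4.38 for wild type, -4.20 and -3.68 for heterozygotes and -3.77 and -3.41 for homozygotes on its brighter probe A_52_P607128. The homozygous embryos exceeded wild type there by 0.76 ± 0.22 (SE, adjusted p = 0.0443), and by 0.36 (adjusted p = 0.0664) with normexp and quantile normalization. Its other probe, A_52_P127130, was not well above background on the wild-type arrays and on 1 of 2 heterozygous arrays. It entered the test only through its homozygous arrays, so its call is no separate support. In the main fit Msr1 was at least 2.06-fold higher on it in homozygous than in wild-type embryos. This bound takes the higher of the dim signal and the lowest signal well above background on each array. The adjusted p of 0.0458 in limma's test belongs to the difference of 1.30 and not to the bound. The difference of that probe was 0.53 with normexp and 0.23 with normexp and quantile normalization (adjusted p = 0.137).

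Stab1 moved the other way. It encodes stabilin-1, a scavenger receptor of sinusoidal endothelium as well as of macrophages. Its levels were -0.18 and -0.47 for wild type, -0.11 and -0.30 for heterozygotes and -0.95 and -0.96 for homozygotes. Both homozygous embryos were below every other embryo, with differences of -0.63 ± 0.15 (SE, adjusted p = 0.0279) against wild type and -0.75 ± 0.15 (SE, adjusted p = 0.0193) against heterozygous embryos. The other scavenger and recognition receptors were not called. Mrc1, the mannose receptor, had levels of 0.12 and 0.04 for wild type, 0.17 and 0.36 for heterozygotes and 0.44 and 0.77 for homozygotes, with a difference of 0.53 ± 0.16 (SE, adjusted p = 0.0552). Timd4, a receptor for phosphatidylserine on dying cells, gave 0.65 ± 0.22 (SE, adjusted p = 0.0689). Cd14, the lipopolysaccharide co-receptor, gave 0.34 ± 0.15 (SE, adjusted p = 0.124), and Trem2, a lipid receptor of microglia and other macrophages, gave 0.12 ± 0.20 (SE, adjusted p = 0.684).

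Of the leukocyte surface and signalling genes, Lilrb4a had the smallest p of all macrophage probes. It encodes an inhibitory immunoglobulin-like receptor of myeloid cells. Its brighter probe A_55_P1957459 had levels of -3.12 and -3.29 for wild type, -2.83 and -2.70 for heterozygotes and -1.79 and -2.07 for homozygotes. The 3 genotypes were ordered without overlap, and homozygous embryos exceeded wild type by 1.27 ± 0.15 (SE, adjusted p = 0.00325) and heterozygous embryos by 0.83 ± 0.15 (SE, adjusted p = 0.0145). The dimmer probe A_51_P241457, well above background on 1 of the 2 wild-type arrays, had levels of -6.55 and -6.84 for wild type, -6.50 and -6.05 for heterozygotes and -5.64 and -5.49 for homozygotes. It gave the same order and 1.13 ± 0.20 (SE, adjusted p = 0.0100) against wild type. With normexp background this became 0.50, and with quantile normalization as well 0.20 (adjusted p = 0.120), and the call against heterozygous embryos was lost there too (0.10, adjusted p = 0.396). The mouse genome holds a near-identical neighbour of Lilrb4a, and the probes may read both.

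Aif1 was lower in homozygous embryos. It encodes IBA1, the calcium-binding protein used to stain microglia and macrophages. Its levels were -1.03 and -0.99 for wild type, -0.97 and -0.76 for heterozygotes and -1.43 and -1.63 for homozygotes. The homozygous embryos were lowest, with differences of -0.52 ± 0.14 (SE, adjusted p = 0.0399) against wild type and -0.67 ± 0.14 (SE, adjusted p = 0.0228) against heterozygous embryos. The call against wild type was lost in 10 of 16 other settings, among them normexp with a difference of -0.30 (adjusted p = 0.0819) and normexp with quantile normalization with -0.33 (adjusted p = 0.0738). Laptm5, a lysosomal protein of blood cells, rose on probe A_51_P401668 by 0.58 ± 0.14 (SE, adjusted p = 0.0295), or 0.37 with normexp and quantile normalization, with levels of -3.72 and -3.53 for wild type, -3.36 and -3.39 for heterozygotes and -2.94 and -3.15 for homozygotes. Its brighter probe A_52_P13815 gave -0.10 ± 0.15 (SE, adjusted p = 0.658). Ptprc, the pan-leukocyte antigen CD45, had levels of -3.64 and -3.72 for wild type, -3.66 and -3.42 for heterozygotes and -3.36 and -2.51 for homozygotes. Homozygous embryo 2 alone was far above the rest, and the difference was 0.74 ± 0.28 (SE, adjusted p = 0.0894). The 3 probes of Itgam, the integrin chain CD11b, gave -0.27 ± 0.16 (SE, adjusted p = 0.230), 0.08 ± 0.15 (SE, adjusted p = 0.703) and -0.32 ± 0.24 (SE, adjusted p = 0.358).

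Among oxidase, lysosomal and bactericidal genes Cybb and 1 probe of Mpeg1 rose, and Lyz1 fell. Mpeg1 encodes perforin-2, a pore-forming protein of phagosomes. Its probe A_51_P390538 had levels of -1.40 and -1.49 for wild type, -1.29 and -0.98 for heterozygotes and -0.29 and -0.39 for homozygotes. Homozygous embryos exceeded wild type by 1.10 ± 0.15 (SE, adjusted p = 0.00469) and heterozygous embryos by 0.80 ± 0.15 (SE, adjusted p = 0.0154), with no overlap between any of the genotypes. The other probe, A_52_P180373, was well above background on the wild-type arrays alone, where it was brighter, and it was not called (adjusted p = 0.144). Cybb, the membrane subunit of the phagocyte oxidase, had levels of -4.48 and -4.72 for wild type, -4.37 and -4.00 for heterozygotes and -3.42 and -3.98 for homozygotes. It was 0.90 ± 0.23 (SE, adjusted p = 0.0330) higher in homozygous than in wild-type embryos, and 0.48 (adjusted p = 0.0310) higher with normexp and quantile normalization. Cyba, its partner subunit, gave 0.36 ± 0.15 (SE, adjusted p = 0.120) on the brighter probe and -0.29 ± 0.12 (SE, adjusted p = 0.127) on the other.

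The largest difference of any macrophage probe was that of Lyz1. Lyz1 and Lyz2 encode the 2 lysozymes of the mouse, of which Lyz2 is the usual macrophage marker. Lyz1 had levels of 1.08 and 1.30 for wild type, 1.30 and 1.61 for heterozygotes and -0.03 and -1.66 for homozygotes. Both homozygous embryos were below the other 4, with homozygous embryo 2 well below homozygous embryo 1. The difference was -2.04 ± 0.48 (SE, adjusted p = 0.0261) against wild type and -2.31 ± 0.48 (SE, adjusted p = 0.0210) against heterozygous embryos. Without homozygous replicate 2 these were -1.22 and -1.49. The call of Lyz1 was lost in 6 of 16 other settings against wild type and in 2 of 16 against heterozygous embryos. Lyz2 had levels of -5.30 and -5.37 for wild type, -5.40 and -4.59 for heterozygotes and -4.21 and -4.68 for homozygotes. Its homozygous mean was higher, by 0.89 ± 0.29 (SE, adjusted p = 0.0632), which did not pass. The 2 genes are close in sequence, and whether their probes tell them apart was not tested. Ctss, the lysosomal protease cathepsin S, had levels of 0.58 and 0.75 for wild type, 0.88 and 1.11 for heterozygotes and 1.26 and 1.05 for homozygotes, ordered wild type, heterozygous, then homozygous except that homozygous embryo 2 was below heterozygous embryo 2. Its difference was 0.49 ± 0.15 (SE, adjusted p = 0.0590).

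The remaining group held genes of antigen presentation, a chemokine and a lectin, and none was called. Cd74, the invariant chain of class II molecules, gave 0.46 ± 0.23 (SE, adjusted p = 0.184). Pf4, a chemokine of megakaryocytes that embryonic macrophages also express, gave 0.30 ± 0.21 (SE, adjusted p = 0.321). Lgals3, galectin-3, had levels of 0.84 and 0.92 for wild type, 1.31 and 1.20 for heterozygotes and 1.60 and 1.16 for homozygotes, with every wild-type embryo lowest, and gave 0.50 ± 0.18 (SE, adjusted p = 0.0766). In all, 18 of the 32 tested genes had no called probe in homozygous against wild-type embryos.

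**Figure D2:**
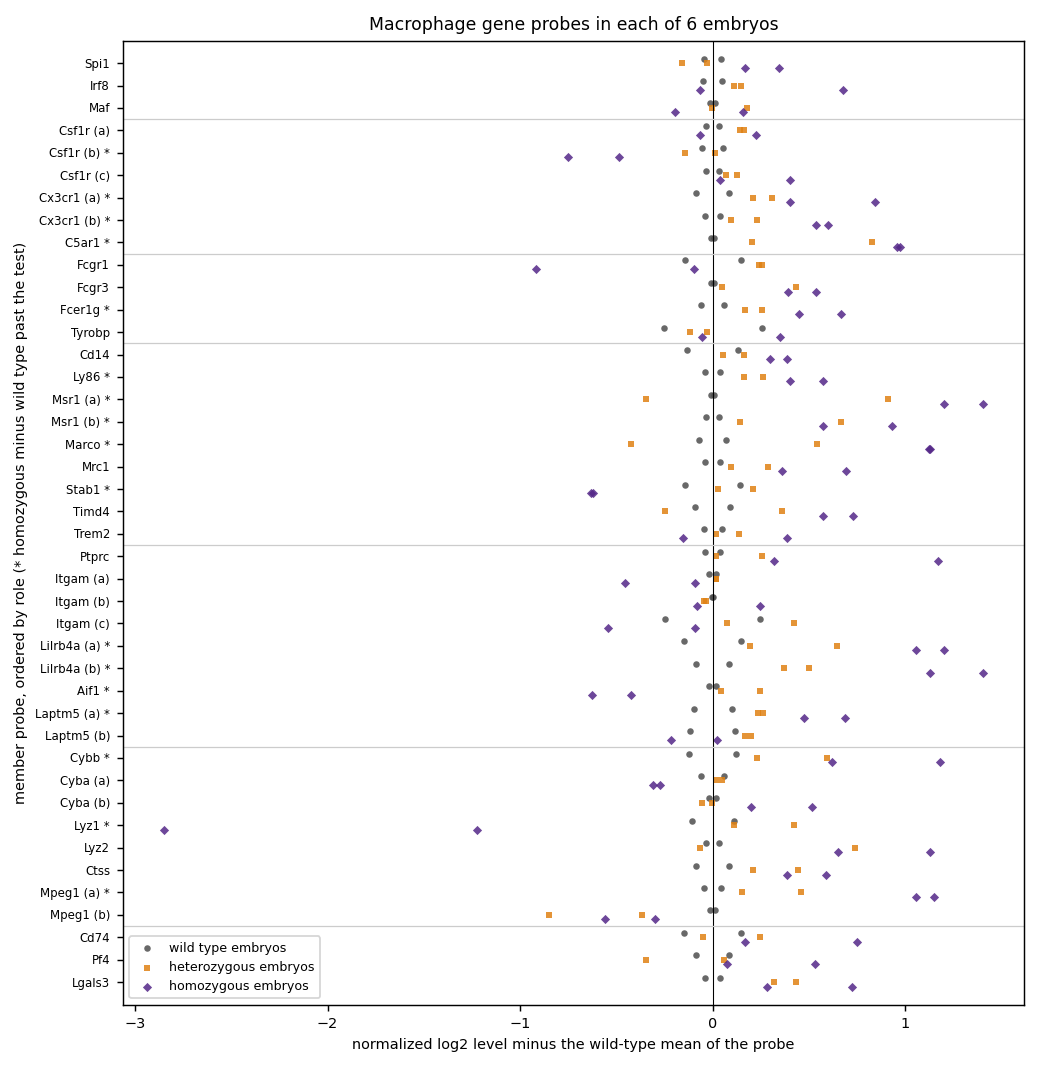
Level of each macrophage probe in each of the 6 embryos as a log2 difference from the wild-type mean of that probe, in colour, with genes grouped by role and probes of 1 gene lettered in the order of their identifiers. Lilrb4a and 1 probe of Mpeg1 rise from wild type to homozygous, and Lyz1 has the lowest values in the homozygous embryos.

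Probes of the same gene often disagreed in sign against wild type, in homozygous and in heterozygous embryos. Of the 8 macrophage genes with more than 1 tested probe, Cx3cr1, Lilrb4a and Msr1 had probes of 1 sign in both genotypes. In homozygous minus wild type they were called at every probe, though the dimmer probe of Msr1 was tested only through its homozygous arrays. Csf1r, Cyba, Itgam and Mpeg1 had probes of both signs in both genotypes, and Laptm5 in homozygous minus wild type alone. The negative probe of Mpeg1 was well above background on the wild-type arrays alone. For homozygous minus wild type its signal was too dim to give a bound in either direction. Over the array only the brightest and next brightest tested probes were compared, rather than every probe, in 4437 genes with several. They had 1 sign in 54.0% of genes for homozygous minus wild type and in 61.9% for heterozygous minus wild type. The median gaps between them were 0.43 and 0.08. The gap was thus wider between scans than within the first scan, and its part in the differences above was not tested.

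**Figure D3:**
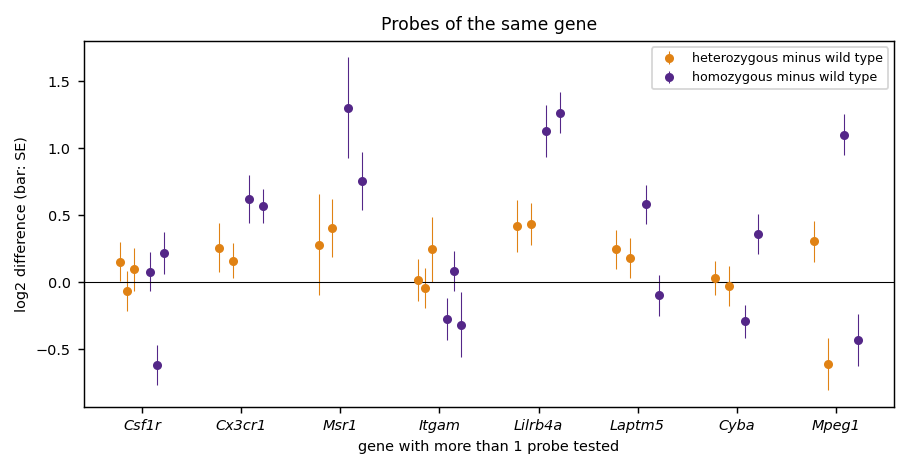
Log2 differences from wild type, with standard errors as bars, at every tested probe of the 8 macrophage genes with more than 1 probe. The homozygous points of Csf1r, Laptm5 and Mpeg1 lie on both sides of 0, and those of Lilrb4a lie close together above 1. The lower probe of Mpeg1 was well above background on the wild-type arrays alone.

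No macrophage probe was called between heterozygous and wild-type embryos, where 0% of the 29908 probes of the array were called. At an unadjusted p below 0.05 there were 3 macrophage probes and 625 probes in all. These 3 were Lilrb4a at A_55_P1957459 (0.44, unadjusted p = 0.0281), C5ar1 (0.51, unadjusted p = 0.0483) and the dim probe of Mpeg1 (at least 1.39-fold higher in wild type, unadjusted p = 0.0188). Their adjusted p in limma was 1.00. The dim probe of Mpeg1 entered the test only through its wild-type arrays, so it is no separate support. Its unadjusted p belongs to the difference of -0.61 and not to the bound. The macrophage probes leaned upward without any of them being called. Of the 42 probes 35 had a positive difference (83.3%, against 51.7% of all probes), and the median was 0.16 against 0.00. Both heterozygous embryos lay above both wild-type embryos on 23 probes and below them on 2, where over the array 14.6% of probes lay above and 11.9% below.

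Against heterozygous embryos, homozygous embryos were higher at 4 macrophage probes, of Marco, Lilrb4a and Mpeg1, and lower at 4, of Csf1r, Stab1, Aif1 and Lyz1. Each share, 9.52% of the 42 probes, was near or below that over the array, where 22.7% of probes were called, 9.56% as higher and 13.1% as lower. The same homozygous embryos serve in both comparisons. They lay above both heterozygous embryos on 19 macrophage probes and below them on 9, where the shares over the array were 34.4% and 28.5%. The median was 0.25 for the macrophage probes and 0.07 for all. With normexp background correction 20 macrophage probes were higher and 5 lower, so that 59.5% of the 42 were called, against 46.1% of all probes. The share of all calls that were higher went from 42.1% to 75.9% and the median of all probes to 0.24. Which probes were called depended on single arrays. With 1 array left out, the median in this comparison was 0.18 to 0.31 for the macrophage probes and 0.05 to 0.07 for all probes.

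The embryos of a genotype were not alike. The median deviation of the macrophage probes from their wild-type means was 0.12 and 0.20 for heterozygotes, 0.40 for homozygous embryo 1 and 0.26 for homozygous embryo 2, while that of all probes lay between -0.01 and 0.07. Homozygous embryo 1 had the highest level of the 6 embryos at 19 of 42 probes and homozygous embryo 2 at 12. Homozygous embryo 2 also had the lowest level at 10 probes, and wild-type embryo 2 at 14. Such counts were not made over all probes. The median gap between embryos of 1 genotype over the macrophage probes was 0.09 for wild type, 0.17 for heterozygous and 0.29 for homozygous, against 0.11, 0.17 and 0.25 over all probes.

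Other macrophage genes, 82 in number and chosen for known roles with earlier results of these data known, were set beside these. Of 93 tested probes of 78 genes, 28 were higher in homozygous than in wild-type embryos and 3 were lower. The shares over the array were 13.2% and 14.6%, and the median of these 93 probes was 0.31. Their summed signal, in units of the 75th percentile, was 202 to 203 in wild-type, 199 to 205 in heterozygous and 202 to 218 in homozygous embryos, with homozygous embryo 2 within the wild-type range. None was called in heterozygous against wild-type embryos. In homozygous against heterozygous embryos 10 were higher and 3 lower, where the shares over the array were 9.56% and 13.1%. Tlr7, a sensor of single-stranded RNA, was 1.18 ± 0.18 (SE, adjusted p = 0.00616) higher than wild type on 1 probe and 0.22 ± 0.24 (SE, adjusted p = 0.502) on the other. Csf2rb, the shared chain of the receptors for GM-CSF and interleukin 3, gave 1.12 ± 0.14 (SE, adjusted p = 0.00338) and 0.31 ± 0.15 (SE, adjusted p = 0.181). The 3 lowered probes were those of P2ry12, Siglech and Ccr1. P2ry12, a nucleotide receptor of microglia, had levels of -2.46 and -2.49 for wild type, -2.58 and -2.33 for heterozygotes and -3.46 and -3.63 for homozygotes, a difference of -1.07 ± 0.15 (SE, adjusted p = 0.00450). Siglech, a lectin of microglia and plasmacytoid dendritic cells, gave -2.63 ± 0.28 (SE, adjusted p = 0.00231) on its bright probe. Its second probe, not well above background in homozygous embryos, was not called (adjusted p = 0.0846). Ccr1, a chemokine receptor, was not well above background in homozygous embryos and was at least 2.74-fold higher in heterozygous embryos (adjusted p = 0.00584). Between heterozygous and wild-type embryos the genes of this list nearest to the threshold, all at an adjusted p of 1.00 in limma, were Ccr2 at 0.59, Fcgr2b at 0.44, Ms4a6d at 0.41 and Csf2rb at 0.39. No probe was matched to Cd68. Of the other defining macrophage markers, C1qa, a complement subunit, rose by 0.54 ± 0.14 (SE, adjusted p = 0.0312), and the 2 probes of Adgre1, the F4/80 antigen, gave 0.44 ± 0.20 (SE, adjusted p = 0.148) and -0.02 ± 0.19 (SE, adjusted p = 0.934).

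Among markers of other blood cells, only those of neutrophils and mast cells were called higher in homozygous embryos at most tested probes. The summed signal of the 32 tested macrophage genes, in units of the 75th percentile, was 30.5 to 31.4 in wild-type, 32.0 to 34.8 in heterozygous and 33.1 to 39.8 in homozygous embryos. That of 14 neutrophil genes was 39.0 to 39.2, 40.7 to 41.5 and 53.8 to 62.0. Of their 15 probes 9 were higher in homozygous than in wild-type embryos, with none lower. The shares over the array in that comparison, 13.2% higher and 14.6% lower, apply to this list and those that follow. These lists too were chosen with earlier results of these data known. S100a8 and S100a9, the calprotectin chains, gave 0.95 ± 0.27 (SE, adjusted p = 0.0458) and 1.12 ± 0.26 (SE, adjusted p = 0.0236), and Ngp gave 0.56 ± 0.25 (SE, adjusted p = 0.138). For 7 mast cell genes the sums were 2.06 to 2.13, 2.78 to 2.79 and 3.39 to 4.11, and 6 of 8 probes were higher. Cpa3 gave 0.94 ± 0.16 (SE, adjusted p = 0.00981), Mcpt4 0.82 ± 0.18 (SE, adjusted p = 0.0211) and Tpsb2 1.07 ± 0.15 (SE, adjusted p = 0.00479) on 1 probe and 0.05 ± 0.19 (SE, adjusted p = 0.863) on the other. These probes were well above background on every array, except the second of Tpsb2 on 1 homozygous array. Neutrophil precursors and mast cells also express Fcer1g, Ptprc, Cybb and Laptm5, and the part of those cells in the differences was not tested.

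None of 17 megakaryocyte probes was called, Pf4 among them, with sums of 17.8 to 19.8, 16.8 to 19.8 and 21.1 to 26.1. Itga2b gave -0.06, Gp9 0.07 and Gp1ba 0.96 ± 0.32 (SE, adjusted p = 0.0711). Of 13 endothelial probes 1 was lower, a probe of Kdr, at -0.67 ± 0.17 (SE, adjusted p = 0.0324), while its other probe gave 0.15, Cdh5 -0.08 and Pecam1 -0.18. The endothelial sums were 21.4 to 22.3, 21.5 to 22.7 and 23.1 to 26.4. Endothelium also expresses Stab1, and its part in the fall of Stab1 was not tested. Of 10 dendritic cell probes 1 of the 2 for Zbtb46 was lower, at -0.60 ± 0.16 (SE, adjusted p = 0.0357). Flt3 gave -0.11, and Itgax was not well above background on both arrays of any genotype and was not tested. The dendritic sums were 1.27 to 1.32, 1.38 to 1.42 and 1.20 to 1.77.

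Of 8 lymphoid probes 1 was higher, that of Cd3g, whose signal in wild-type embryos was at background. Cd3e gave -0.20 and Cd79a 0.03, neither of them called, and the lymphoid sums were 1.20 to 1.67, 1.28 to 1.53 and 1.22 to 1.59. None of 13 erythroid probes was called, with Klf1 at -0.69 and Alas2 at 0.23, and sums of 185 to 209.6, 156 to 179 and 227 to 242. Of 12 fetal hepatocyte probes 4 were higher, those of Afp, Apoa2, Fgb and Serpina1a, where over the array 13.2% of probes were higher. The hepatocyte sums were 141 to 149, 129 to 158 and 216 to 231. Afp, the fetal serum protein of liver and yolk sac, gave 0.62 ± 0.13 (SE, adjusted p = 0.0167), Alb 0.48 ± 0.19 (SE, adjusted p = 0.107) and Ttr -0.26. The part of liver content in the macrophage differences was not tested.

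**Figure D4:**
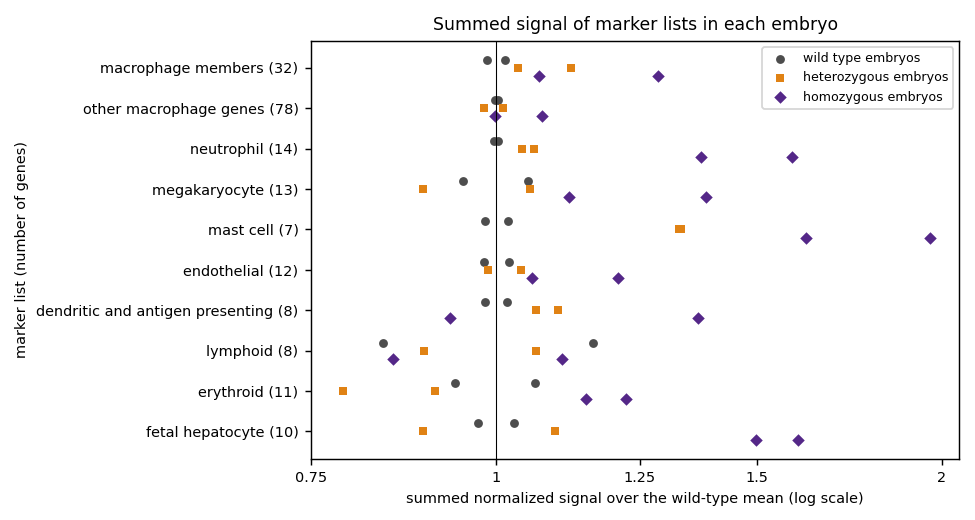
Summed normalized signal of each marker list in each embryo relative to the wild-type mean, on a log axis, with 1 point per embryo and the number of genes in parentheses. Both homozygous embryos lie above all others for the neutrophil, megakaryocyte, mast cell, endothelial, erythroid and fetal hepatocyte lists, and homozygous embryo 2 overlaps the heterozygous embryos for the macrophage genes.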

How the data were processed

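The deposited scanner output is, per the file headers, intensity from Feature Extraction 11.0.1.1, background-subtracted within each array and not normalized between arrays, with per-spot flags. The authors also deposited a log2 table with a median of 6.73 on every array, by a method not given in the sources used here. Each array had 44397 spots, of which 43020 measure genes, and none was saturated. Control spots and outliers were left out and spots of a probe averaged. The log2 processed intensity minus the array's 75th percentile was fitted by genotype on all 6 arrays (limma 3.58.1, R 4.3.3; 3 residual and 3.37 prior degrees of freedom), for 29910 of 39429 gene probes, those flagged as well above background on the 2 arrays of some genotype. A probe was called at a Benjamini-Hochberg adjusted p below 0.05 per comparison. Only 2 arrays per genotype limit the precision.

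Accessions were named through the RefSeq table of GRCm38.p6 (27234 probes, 69.1%), while the array was annotated to mm9, so no probe coordinates are given. The macrophage genes and all marker lists were chosen with earlier results of these data known. Every macrophage gene is accounted for. From the other macrophage genes the 4 smallest p-values per comparison are named, at most 1 per gene, and from other lists the first 3 markers and any that is also a macrophage gene. Results of 2 such markers are not reported here. The called probes Ccr1, Cd3g, Apoa2, Fgb and Serpina1a were named after their values were seen. Bounds ("at least") set the brighter mean against the higher, per array, of the dim signal and the lowest signal well above background. Alternatives were other background corrections (normexp with offset 50, on the median spot signal because no mean signal was used here), normalizations, filters, the authors' log2 values, a replicate block and leaving out each array. The fit was tested on simulated data first.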

Additional observations from a re-analysis of the deposited data

How the results depend on the processing

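In the heterozygous comparison no macrophage probe was called in limma under any setting. At an unadjusted p below 0.05 these were 0 to 8 probes, and over all probes 0 to 7 were called when an array was left out. The median of the macrophage probes stayed above 0 in all 3 comparisons under the 16 other settings. It was 0.24 to 0.46 for homozygous minus wild type, 0.07 to 0.20 for heterozygous minus wild type and 0.15 to 0.36 for homozygous minus heterozygous. The median of all probes was 0.04 to 0.19, -0.05 to 0.02 and 0.05 to 0.24 in the same order, so it too stayed above 0 in both homozygous comparisons.

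With normexp background and the 75th percentile, 25 macrophage probes and 13790 of all probes were called between homozygous and heterozygous embryos, with a macrophage median of 0.36, and the heterozygous minus wild type median was 0.071. Probe A_52_P602091 of Csf1r went from -0.07 to 0.31 (adjusted p = 0.0412) there in homozygous minus heterozygous, and the cause was not tested. With normexp and quantile normalization the macrophage medians were 0.24 against wild type and 0.15 against heterozygous embryos. With no dim filter, 5 macrophage probes (11.6%) were called in each homozygous comparison, against 17.3% and 14.1% of all probes. With only the compared genotypes fitted, so fewer arrays, 4 macrophage and 3594 of all probes were called between homozygous and heterozygous embryos.

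Leaving out 1 array gave 2 to 17 called macrophage probes, 2130 to 10780 of all and a median of 0.26 to 0.44 for homozygous minus wild type, and 0 to 11, 1933 to 9555 and 0.18 to 0.31 for homozygous minus heterozygous. An arm left with 1 array is assumed to vary like the others. With the replicate block 15 macrophage probes were called for homozygous minus wild type (35.7%, against 26.9% of all probes). For homozygous minus heterozygous there were 7 (16.7%, against 21.9% of all probes). Same-numbered embryos correlated at 0.00, -0.16 and 0.29 in their deviations. The numbers were not taken to pair the embryos, since not every pair exceeded 0.1, and a shared litter is not stated. A scan block could not be fitted for homozygous embryos. Of the 25 called results of single probes, 2 passed under every setting. Single-probe values kept direction and side of the threshold 1725 times, lost the call 124 times and gained it 64 times. They changed sign without being called in either setting 63 times, and changed sign with a call once. Depth here means signal over background, which limits Spi1, C5ar1, Msr1 and the dim probes of Lilrb4a and Mpeg1.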
